A study of Mus musculus with 6 samples.

Results

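The 10 genes described here are *Nfe2l2*, which encodes the transcription factor NRF2, its inhibitor *Keap1*, and 8 well-known NRF2 target genes of the antioxidant response, *Hmox1*, *Nqo1*, *Gclm*, *Gclc*, *Txnrd1*, *Srxn1*, *Gsr* and *Prdx1*. They were chosen by name, with earlier results of these data known, and each matched 1 of the 54532 genes measured by RNA-seq. The cells were bone-marrow-derived macrophages (BMDMs), which are macrophages grown from the marrow of wild-type C57BL/6 mice in medium conditioned by L929 cells. Of the 6 libraries, 2 came from untreated BMDMs (Untr), 2 from BMDMs stimulated with lipopolysaccharide at 100 ng/ml for 2 h (LPS), and 2 from BMDMs that had received metformin at 5 mM over 6 h before the same stimulation (Met + LPS). Metformin alone was not among the groups, so a difference between Met + LPS and LPS shows the effect of metformin only in stimulated cells. LPS is a bacterial outer-membrane component sensed through TLR4, and metformin is an antidiabetic drug.

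In resting cells KEAP1 binds NRF2 and hands it to a CUL3 ubiquitin ligase for degradation. Oxidants and electrophiles modify KEAP1, NRF2 then accumulates, pairs with small MAF proteins and binds antioxidant response elements (AREs) of genes for glutathione synthesis, thioredoxin recycling, NADPH supply and haem breakdown. BACH1 competes for the same elements as a repressor. Because NRF2 is controlled mainly through protein stability, its transcript level need not follow its activity, and protein was not measured in these data.

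Metformin pretreatment raised 8 of the 10 genes above their level in LPS, led by *Gclm* (2.67 times the LPS mean), *Srxn1* (2.29 times), *Prdx1* (1.79 times) and *Gclc* (1.75 times). In the same test 14.5% of all tested genes were higher. Of the 8, *Hmox1* and *Gsr* had the least stable calls over the other settings of the analysis, which are given below. *Keap1* and *Nqo1* did not pass the test in this comparison. LPS alone had moved the same genes in different ways. As deposited, *Txnrd1* rose to 2.61 times its untreated mean, *Hmox1* fell by 57.7% and *Gclc* fell by 52.7%. All of the others but *Gclm* differed by less than the median gene, which itself fell. With the libraries rescaled by their median ratio, the log2 fold changes were -0.71 for *Hmox1* and -0.54 for *Gclc*. The plot of transcript levels by library shows all 10 genes.

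**Figure D1:**
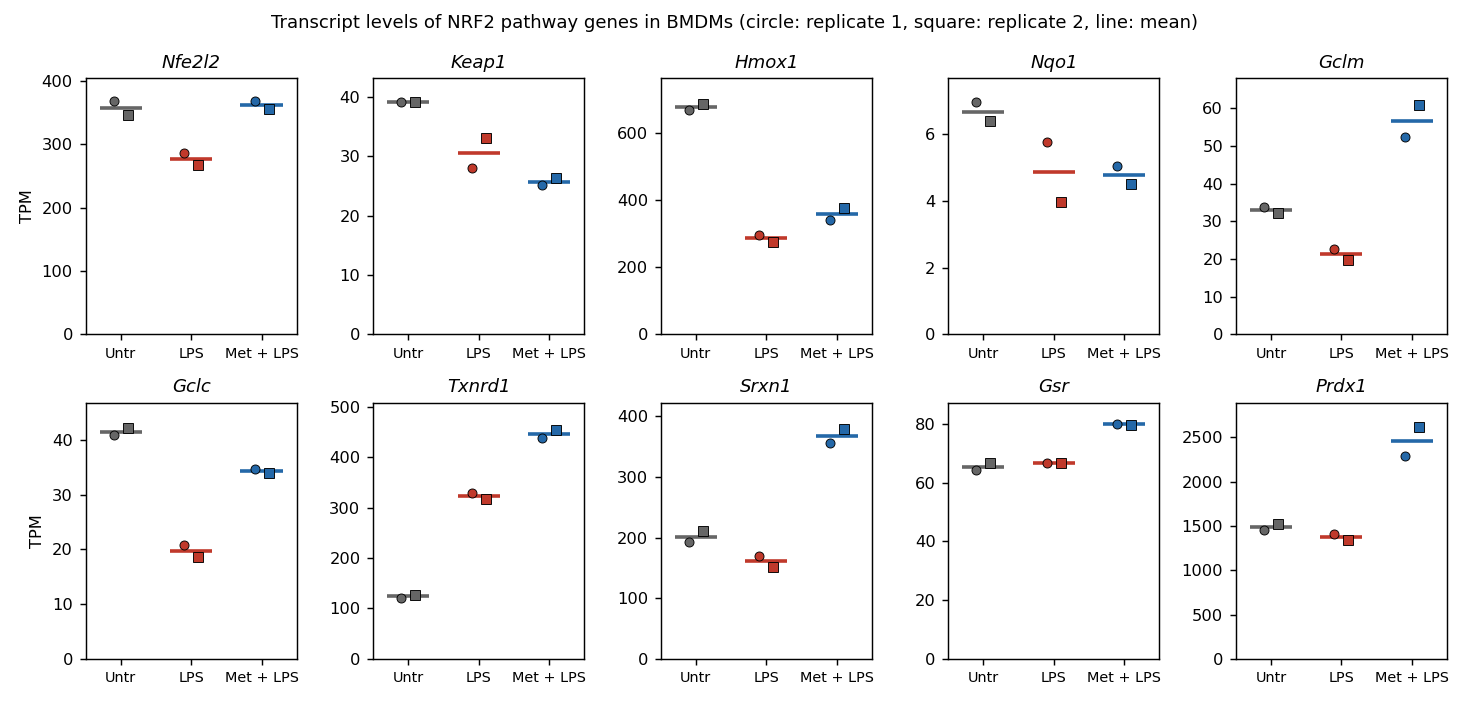
Transcript level in TPM (linear axes from 0, 1 panel per gene) of the 10 genes in untreated, LPS and Met + LPS BMDMs, with circles for replicate 1, squares for replicate 2 and lines for the mean of 2. In these TPM as deposited, *Gclm*, *Srxn1*, *Prdx1* and *Gsr* are highest in Met + LPS and *Txnrd1* climbs from group to group. *Hmox1*, *Keap1*, *Gclc* and *Nqo1* are highest in untreated cells.

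Values are length-scaled transcript shares (TPM) as deposited by the authors, a unit that accounts for gene length and gives every library an equal sum. Reads recovered from these values summed to between 25457016 and 30762754 per library. Differences were tested with limma on log2(TPM + 1) over the 12755 genes that reached 1 TPM in 2 or more libraries, all 10 genes among them, and a gene passed the test at a Benjamini-Hochberg adjusted p-value under 0.01. The cut-offs on fold were those of the study's methods, an absolute log2 fold change of 0.7 between Met + LPS and LPS and of 2 between LPS and untreated cells, which was also applied to Met + LPS vs. untreated. With 2 libraries against 2, the smallest two-sided exact permutation p is 0.333, and significance here draws on the spread that limma pools over genes. The study's methods state that the BMDMs for RNA-seq were seeded in duplicate. The sources do not say whether the 2 libraries of a group came from separate mice. The p-values therefore measure only the spread between these samples, which may be technical. As deposited, log2 fold changes of the tested genes had a median of -0.48 in LPS vs. untreated, -0.03 in Met + LPS vs. LPS and -0.48 in Met + LPS vs. untreated. Comparisons of the 10 genes with untreated cells are therefore given a second time with each library divided by its median ratio to the mean of all, here called rescaling, which brought these medians to -0.01, -0.02 and 0. Bulk values cannot tell a smaller number of cells of a type from less RNA per cell. All 8 macrophage markers were detected, with summed levels of 44600 to 46600 TPM in untreated, 37400 to 37900 in LPS and 30900 in both Met + LPS libraries. Most of each sum was *Lyz2*. As deposited, 2 of the 8 (*Cd14* and *Adgre1*) were higher and 5 lower in LPS than in untreated cells, against 16.2% and 60.1% of all tested genes. After rescaling 5 were higher and 1 lower, against 30.6% and 27.6%. Against LPS, Met + LPS had lower levels of 6 (18.0% of all tested genes were lower), while *Cd68* and *Csf1r* did not pass the test. None of the lymphocyte, erythroid or fibroblast markers reached 1 TPM. Of 7 neutrophil markers 3 did (*Elane*, *Mpo* and *Ngp*), with sums of 20.4 to 21.5, 9.76 to 15.2 and 21.5 to 22.5 TPM in the same order, as did 3 of 4 dendritic cell markers (*Ccr7*, *Xcr1* and *Zbtb46*), with sums of 1.63 to 2.73, 3.04 to 3.13 and 5.07 to 5.34 TPM. The part of these markers in the results was not tested.

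Ordered by level in untreated cells, the genes ran from *Prdx1* (1492 TPM) over *Hmox1* (677), *Nfe2l2* (357), *Srxn1* (202), *Txnrd1* (124), *Gsr* (65.4), *Gclc* (41.5), *Keap1* (39.2) and *Gclm* (33.0) down to *Nqo1* (6.66), and no neighbours in that order had overlapping libraries. In LPS *Txnrd1* stood in rank 2. *Hmox1* (286 TPM) and *Nfe2l2* (277 TPM) overlapped there, as did *Gclm* (21.2 TPM) and *Gclc* (19.6 TPM). In Met + LPS *Srxn1* (368 TPM), *Nfe2l2* (362 TPM) and *Hmox1* (360 TPM) could not be separated, and *Gclm* (56.6 TPM) had moved above *Gclc* (34.3 TPM). *Nqo1* stayed last in every group, with only 45 to 82 reads per library against at least 510 for each of the other genes.

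A search of the promoters for short motifs was planned as a description, without a test. Most of these genes were chosen as known NRF2 targets, so their share of ARE cores follows in part from that choice. The part of these motifs in the response to metformin was not tested. RefSeq promoter windows (GRCm38.p6, from 250 bases before to 50 bases after a start site) were at hand for 7 of the 10 genes, in 9 windows. The core of the ARE was written as TGACNNNGC, the AP-1 site as TGANTCA and a C/EBP-ATF composite site as TGATGNAA, each searched on both strands. ARE cores stood in windows of 5 of the 7 genes. By window it was 5 of the 9, against 12.4% of the 32851 windows searched and 14.6% of those of tested genes. The windows searched leave out a chromosome that holds none of the 10 genes. AP-1 sites stood in 2 of the 9 windows, against 7.81% of the windows searched and 5.25% of those of tested genes. The composite site stood in 0, against 3.97% and 2.32%. A match is a description of these letters, and a window without one says only that the letters are not in it.

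The 250 bases before the start site are shown for the 5 windows with an ARE core, 5′ to 3′ on the gene's own strand, with ARE cores and AP-1 sites in capitals. *Gclm* (chr3:122245307-122245556, plus strand) carries its core on the opposite strand at -134 to -126. *Prdx1* (chr4:116685349-116685598, plus strand) carries it at -133 to -125, overlapping 1 of its 2 AP-1 sites. *Txnrd1* (chr10:82858956-82859205, plus strand) carries it at -92 to -84 of 1 of its 3 start sites, and *Nfe2l2* (chr2:75704664-75704913, minus strand) at -240 to -232. *Srxn1* (chr2:152105274-152105523, plus strand) has its core at 29 to 37 after the start site, outside the bases shown, and 2 AP-1 sites before it.
Gclm: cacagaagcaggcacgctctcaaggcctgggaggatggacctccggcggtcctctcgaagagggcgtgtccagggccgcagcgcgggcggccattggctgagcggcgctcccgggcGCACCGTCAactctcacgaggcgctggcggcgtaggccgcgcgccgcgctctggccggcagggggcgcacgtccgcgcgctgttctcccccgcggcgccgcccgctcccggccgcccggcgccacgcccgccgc
Srxn1: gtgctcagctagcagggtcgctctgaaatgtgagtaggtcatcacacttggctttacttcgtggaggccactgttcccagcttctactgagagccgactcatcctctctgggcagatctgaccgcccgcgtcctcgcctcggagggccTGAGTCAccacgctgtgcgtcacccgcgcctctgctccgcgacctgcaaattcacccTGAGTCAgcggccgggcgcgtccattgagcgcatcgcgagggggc
Prdx1: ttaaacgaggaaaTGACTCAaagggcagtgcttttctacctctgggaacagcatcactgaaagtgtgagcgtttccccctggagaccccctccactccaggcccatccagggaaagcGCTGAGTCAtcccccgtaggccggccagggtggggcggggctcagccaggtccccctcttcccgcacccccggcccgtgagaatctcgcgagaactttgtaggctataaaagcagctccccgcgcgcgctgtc
Txnrd1: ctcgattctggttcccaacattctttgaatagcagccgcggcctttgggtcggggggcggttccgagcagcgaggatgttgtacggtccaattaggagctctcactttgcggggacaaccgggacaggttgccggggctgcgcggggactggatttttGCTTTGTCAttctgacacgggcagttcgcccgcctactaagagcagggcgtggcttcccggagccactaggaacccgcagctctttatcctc
Nfe2l2: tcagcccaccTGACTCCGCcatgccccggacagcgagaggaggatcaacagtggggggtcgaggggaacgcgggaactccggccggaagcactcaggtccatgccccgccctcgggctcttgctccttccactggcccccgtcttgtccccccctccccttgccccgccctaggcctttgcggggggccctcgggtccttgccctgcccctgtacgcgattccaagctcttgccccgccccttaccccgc

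**Figure D2:**
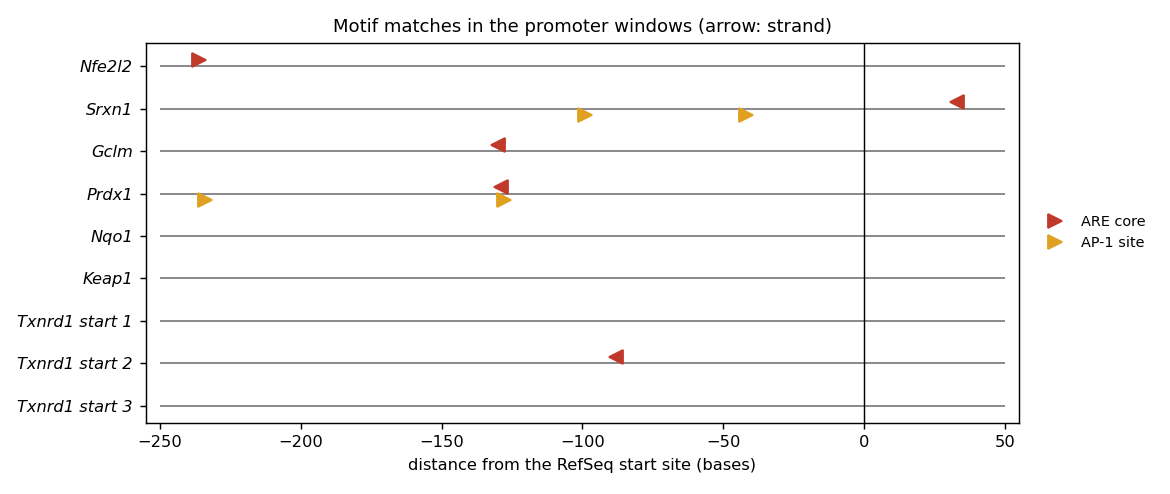
Matches to the ARE core (red) and the AP-1 site (yellow) along the 9 promoter windows, by distance in bases from the RefSeq start site; arrows point along the strand of the match. The cores of *Gclm* and *Prdx1* lie at nearly the same distance before the start site, and the windows of *Nqo1* and *Keap1* hold no match.

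*Nfe2l2* (ENSMUSG00000015839, GRCm38 chromosome 2, 75675513 to 75704641) stood at 368 and 345 TPM in the untreated libraries, 287 and 267 TPM in LPS and 368 and 356 in Met + LPS. Both LPS libraries lay below the other 4, and untreated and Met + LPS libraries overlapped. The gene was higher in Met + LPS than in LPS by a log2 fold change of 0.39 (SE 0.05, limma adjusted p = 0.00101), which stayed between 0.34 and 0.44 over the alternatives tried and missed the threshold only without Met + LPS replicate 1 (0.36, limma adjusted p = 0.0104). Its lower level in LPS than in untreated cells passed the test in the TPM as deposited (log2 fold change -0.37, limma adjusted p = 4.1e-04), but it was less than the shift of the median gene, and after rescaling the difference was 0.16 in the other direction (adjusted p = 0.0229).

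*Keap1* (ENSMUSG00000003308, chromosome 9, 21229730 to 21239361) was at 39.2 TPM in both untreated libraries, 28.0 and 33.1 in LPS, and 25.1 and 26.3 in Met + LPS. The levels descended without overlap between groups. Met + LPS differed from LPS by a log2 fold change of -0.24 that did not pass the test (95% interval -0.42 to -0.05, limma adjusted p = 0.0452), although it passed with voom on recovered reads (-0.24, adjusted p = 0.00632) and without LPS replicate 1 (-0.35, limma adjusted p = 0.00669). Without LPS replicate 2 it came to -0.12 (limma adjusted p = 0.148). LPS lay below untreated cells by -0.35 as deposited (limma adjusted p = 0.00469), a call that was lost without LPS replicate 1 (-0.24, adjusted p = 0.0102) and without any other library but LPS replicate 2, and the difference was 0.16 in the other direction after rescaling (adjusted p = 0.121). Against untreated cells Met + LPS was lower by a log2 fold change of -0.59 as deposited (limma adjusted p = 3.8e-04) and differed by -0.07 after rescaling (adjusted p = 0.492). The *Keap1* locus shares 510 exon bases with the antisense gene *Gm16754* (at most 2.77 TPM), and whether the counting used strand is not given in the sources used here. The ratio of *Nfe2l2* to *Keap1* transcripts, which no scaling of whole libraries alters, was 9.38 and 8.81 in untreated cells, 10.2 and 8.05 in LPS and 14.6 and 13.5 in Met + LPS. Both Met + LPS ratios lay above the other 4.

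Glutathione is made in 2 steps, of which the first and limiting one is carried out by glutamate-cysteine ligase, a pair of the catalytic subunit GCLC and the modifier subunit GCLM. *Gclm* (ENSMUSG00000028124, chromosome 3, 122245557 to 122270732) was at 33.8 and 32.2 TPM in untreated cells, 22.7 and 19.8 TPM in LPS and 52.4 and 60.8 in Met + LPS. Both Met + LPS libraries lay above all others, and both LPS libraries below. Metformin pretreatment raised it over LPS by 1.37 on the log2 scale (SE 0.09, limma adjusted p = 6.8e-05), the 120th largest increase among the 12755 tested genes. Met + LPS also exceeded untreated cells, by a log2 fold change of 0.76 as deposited (limma adjusted p = 2.1e-04) and 1.28 after rescaling (adjusted p = 2.2e-05). The decrease from untreated to LPS (-0.62, limma adjusted p = 5.9e-04) was close to that of the median gene, and did not pass the test after rescaling (-0.11, adjusted p = 0.309) or without untreated replicate 1 (-0.58, adjusted p = 0.0106). Of the 31-mers of *Gclm*, 93.2% were found in no other gene, and 1165 other genes shared some. Among those that shared the most, the most abundant was *Ppia*, with 3.6% (566 and 545 TPM in untreated, 518 and 472 TPM in LPS, 420 and 428 in Met + LPS).

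*Gclc* (ENSMUSG00000032350, chromosome 9, 77754535 to 77794485) was at 40.9 and 42.1 TPM in untreated cells, 20.7 and 18.6 TPM in LPS and 34.7 and 33.9 in Met + LPS. Its order of groups differed from that of *Gclm*, since Met + LPS stayed between LPS and untreated cells without overlap. The fall under LPS had a log2 fold change of -1.04 (limma adjusted p = 7.0e-06), and it passed the test after rescaling as well (-0.54, adjusted p = 2.1e-04). Met + LPS exceeded LPS by 0.78 (SE 0.06, limma adjusted p = 1.3e-04). Its position against untreated cells depended on the scaling, with a log2 fold change of -0.27 as deposited (limma adjusted p = 0.00492) and 0.26 after rescaling (adjusted p = 0.00601). Without any one of the untreated or Met + LPS libraries the first of these calls was lost (-0.29 to -0.25, limma adjusted p from 0.0196 to 0.0430). The ratio of *Gclm* to *Gclc* transcripts was 0.826 and 0.764 in untreated cells, 1.09 and 1.07 in LPS and 1.51 and 1.79 in Met + LPS. It thus rose from group to group, with no overlap.

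*Gsr* (ENSMUSG00000031584, chromosome 8, 33652523 to 33698163) encodes glutathione reductase, which returns oxidised glutathione to its reduced form with NADPH. It was at 64.1 and 66.7 TPM in untreated cells, 66.8 and 66.7 TPM in LPS and 79.9 and 79.7 in Met + LPS. The untreated and LPS libraries were nearly level and both Met + LPS libraries lay above them. The increase over LPS had a log2 fold change of 0.26 (95% interval 0.17 to 0.34, limma adjusted p = 0.00164), the smallest of the 8 that passed. The call was lost without any one of the LPS or Met + LPS libraries, with values of 0.25 to 0.26 and limma adjusted p between 0.0103 and 0.0115. LPS differed from untreated cells by 0.03 as deposited (limma adjusted p = 0.469) and 0.55 after rescaling (adjusted p = 1.6e-05), and Met + LPS by 0.28 (adjusted p = 3.1e-04) and 0.82 (adjusted p = 2.4e-06).

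The thioredoxin system passes electrons from NADPH through thioredoxin reductase to thioredoxin and on to peroxiredoxins, which reduce hydrogen peroxide; sulfiredoxin repairs peroxiredoxins that were overoxidised in doing so. *Txnrd1* (ENSMUSG00000020250, chromosome 10, 82833951 to 82897712), the cytosolic thioredoxin reductase, was at 121 and 127 TPM in untreated cells, 329 and 318 TPM in LPS and 439 and 454 in Met + LPS. It was the only one of the 10 genes that rose under LPS in the TPM as deposited (log2 fold change 1.38, limma adjusted p = 3.0e-07; 1.90 after rescaling, when *Gsr* and *Prdx1* also rose). Metformin added a log2 fold change of 0.46 to it (SE 0.04, limma adjusted p = 1.8e-04). Against untreated cells the difference came to 1.84 (limma adjusted p = 1.0e-07), and to 2.38 after rescaling.

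*Srxn1* (ENSMUSG00000032802, chromosome 2, 152105516 to 152111376), which encodes sulfiredoxin, was at 193 and 210 TPM in untreated cells, 170 and 152 TPM in LPS and 356 and 380 in Met + LPS. Both Met + LPS libraries lay far above the rest. Metformin pretreatment raised it over LPS by 1.19 on the log2 scale (SE 0.07, limma adjusted p = 4.8e-05), the 182nd largest increase of all tested genes, and that between Met + LPS and untreated cells was 0.86 as deposited (limma adjusted p = 3.1e-05) and 1.40 after rescaling (adjusted p = 3.9e-06). The difference between LPS and untreated cells was -0.33 as deposited (limma adjusted p = 0.00383) and 0.20 after rescaling (adjusted p = 0.0347). The former was lost without untreated replicate 1 (-0.39, adjusted p = 0.0115), without untreated replicate 2 (-0.26, adjusted p = 0.0392) and without LPS replicate 2 (-0.24, adjusted p = 0.0207).

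*Prdx1* (ENSMUSG00000028691, chromosome 4, 116685544 to 116700822), an abundant cytosolic peroxiredoxin, was at 1458 and 1526 TPM in untreated cells, 1406 and 1344 TPM in LPS and 2296 and 2614 in Met + LPS. Untreated and LPS libraries lay close together and the Met + LPS libraries well above both. Met + LPS exceeded LPS by a log2 fold change of 0.83 (SE 0.06, limma adjusted p = 1.3e-04) and untreated cells by 0.72 as deposited (limma adjusted p = 5.5e-05) and 1.26 after rescaling (adjusted p = 5.2e-06). LPS and untreated cells differed by -0.12 as deposited, which did not pass the test (95% interval -0.27 to 0.04, limma adjusted p = 0.129), and by 0.41 after rescaling (adjusted p = 0.00123). Of the 31-mers of *Prdx1*, 84.6% were its own. The processed pseudogenes *Gm21399* and *Gm7204*, which shared 9.7% and 8.3% of them, stood at no more than 7.98 TPM in any library, although the authors' counting could have split reads between the copies.

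*Hmox1* (ENSMUSG00000005413, chromosome 8, 75093621 to 75100589) encodes haem oxygenase 1, which splits haem into biliverdin, carbon monoxide and iron. It was at 668 and 686 TPM in untreated cells, 296 and 277 TPM in LPS and 343 and 377 in Met + LPS, and all 4 stimulated libraries lay far below the untreated ones. The fall under LPS was the largest among the 10 genes, with a log2 fold change of -1.24 (SE 0.06, limma adjusted p = 2.4e-06) as deposited and -0.71 after rescaling (adjusted p = 3.5e-05). Met + LPS exceeded LPS by 0.33 (95% interval 0.20 to 0.46, limma adjusted p = 0.00334). This call was lost in 7 of 15 alternatives, among them the fit of the compared groups only (adjusted p = 0.0165) and the fits without LPS replicate 2 (0.28, adjusted p = 0.0225), without Met + LPS replicate 2 (0.26, adjusted p = 0.0159) and without either untreated library (adjusted p = 0.0162 and 0.0161). Met + LPS remained below untreated cells by -0.91 as deposited (limma adjusted p = 8.8e-06) and by -0.37 after rescaling (adjusted p = 7.9e-04).

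*Nqo1* (ENSMUSG00000003849, chromosome 8, 107388225 to 107403206), a quinone reductase often read as a marker of NRF2 activity, was at 6.94 and 6.38 TPM in untreated cells, 5.75 and 3.97 TPM in LPS and 5.03 and 4.51 in Met + LPS. The Met + LPS libraries lay between the 2 LPS libraries. Met + LPS and LPS differed by a log2 fold change of -0.01 with a 95% interval of -0.37 to 0.35 (limma adjusted p = 0.974), so that changes of the size seen in *Gclc* or *Prdx1* lay outside the interval, and one of the size seen in *Hmox1* lay inside it. LPS and untreated cells differed by -0.40 (limma adjusted p = 0.0396), and by 0.04 after rescaling. Which LPS library was kept decided that value as deposited, which was -0.62 without LPS replicate 1, where it passed (limma adjusted p = 0.00341), and -0.18 without LPS replicate 2 (adjusted p = 0.167).

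As a list, the 10 genes had a median log2 fold change of 0.43 in Met + LPS vs. LPS, beside -0.03 over all tested genes. Of the 10, 8 rose, against 14.5% of all tested genes that were higher at the same threshold, and 4 also passed the fold cut-off (*Gclm*, *Srxn1*, *Prdx1* and *Gclc*), against 4.19% of all. In limma 0 of the 10 fell, against 18.0% of all, 1 was lower at an unadjusted p under 0.05 (*Keap1*), and voom called the same 1. The libraries did not overlap for 9 of the 10, with 8 higher (33.8% of all tested genes) and 1 lower (40.0%).

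In LPS vs. untreated 1 of the 10 was higher, against 16.2% of all tested genes, and 6 were lower, against 60.1% of all, so the share of decreases was that of the background. The median log2 fold change was -0.36 beside -0.48 over all tested genes. After rescaling 3 were higher (*Txnrd1*, *Gsr* and *Prdx1*, against 30.6% of all) and 2 lower (*Hmox1* and *Gclc*, against 27.6%). Without untreated replicate 1, 4 of the 10 passed the test in place of 7. Past the log2 cut-off of 2 stood 0 of the 10 in limma, against 6.08% of all, with 0 also at an unadjusted p under 0.05 and 0 in voom.

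In Met + LPS vs. untreated, which shares its libraries with the other comparisons, 5 of the 10 were higher (*Txnrd1*, *Srxn1*, *Gclm*, *Prdx1* and *Gsr*) against 16.3% of all tested genes, and 3 were lower (*Hmox1*, *Keap1* and *Gclc*) against 58.8%. After rescaling 7 were higher (against 33.4%) and 1 lower (against 29.7%), with *Nfe2l2* (0.56, adjusted p = 6.5e-05) and *Gclc* now among the higher and *Hmox1* the lower one. Past the log2 cut-off of 2 stood 0 of the 10 in limma as deposited, against 5.35% of all, with 0 also at an unadjusted p under 0.05 and 0 in voom, and 1, *Txnrd1*, after rescaling. The comparisons of Met + LPS with LPS and of LPS with untreated cells use the same LPS libraries with opposite signs, so a chance deviation in them moves the 2 fold changes of a gene apart.

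**Figure D3:**
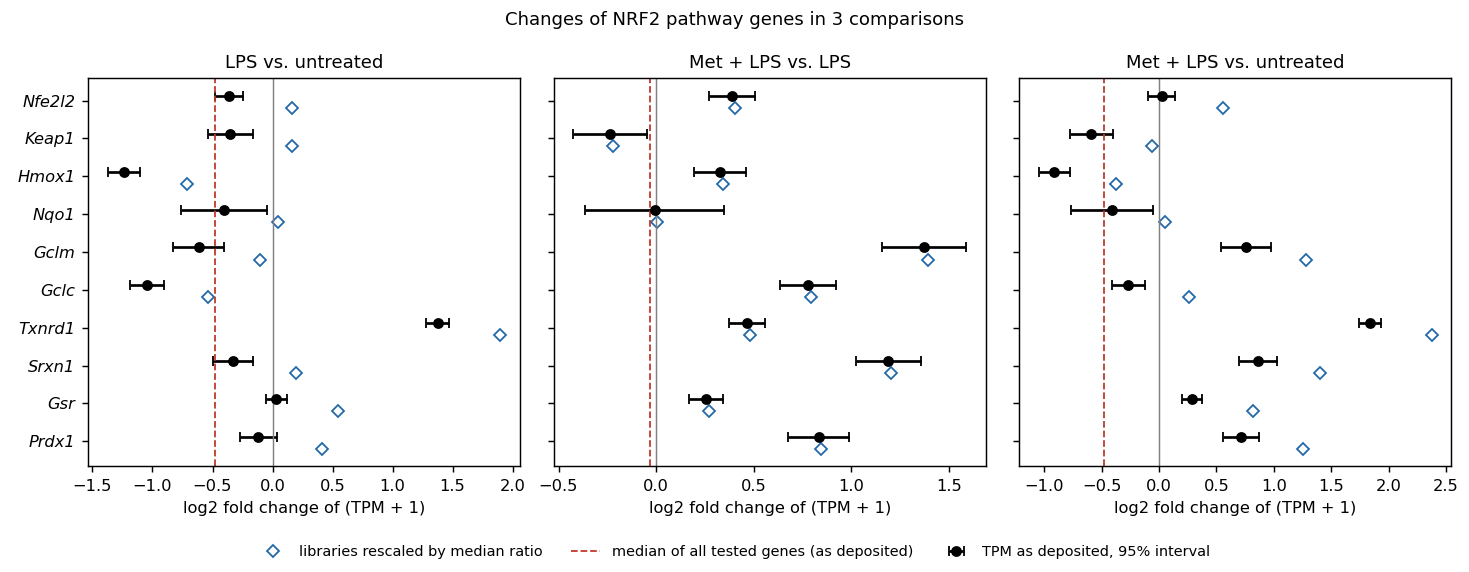
Log2 fold changes of log2(TPM + 1) for the 10 genes in the 3 comparisons, as deposited (black, with 95% intervals from limma) and after rescaling (open diamonds, no interval drawn); the dashed line is the median of all tested genes. Rescaling leaves the middle panel nearly in place and shifts the comparisons with untreated cells to the right.

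The other genes of the pathway were taken from lists of proteins that act with NRF2 or in the same enzymatic systems. Among 15 partners, competitors and regulators of NRF2, 5 rose and 2 fell in Met + LPS vs. LPS, against 14.5% and 18.0% of all tested genes, with a median log2 fold change of 0.11 beside -0.03 over all. *Mafg*, a small MAF partner of NRF2, was at 74.2 and 77.3 TPM in untreated cells, 26.8 and 25.6 TPM in LPS and 63.0 and 62.4 in Met + LPS, an increase of 1.23 over LPS (limma adjusted p = 9.9e-06). *Bach1*, the repressor that competes for AREs, moved the other way, from 88.8 and 87.8 TPM over 126 and 154 TPM in LPS to 89.6 and 79.2 TPM in Met + LPS, a change of -0.72 from LPS (limma adjusted p = 0.00137). *Bach2* rose by 0.93 but stood at no more than 1.77 TPM. *Gsk3b*, a kinase that marks NRF2 for a KEAP1-independent degradation, rose by 0.96 (adjusted p = 1.4e-05), *Nfe2l1*, which encodes the related factor NRF1, by 0.74 (adjusted p = 2.0e-05), and *Sqstm1*, whose product p62 binds KEAP1, by 0.57 (adjusted p = 5.3e-05, limma throughout). *Fbxw11*, an F-box protein acting downstream of *Gsk3b*, fell by 0.29 on the log2 scale (limma adjusted p = 6.9e-04). In LPS vs. untreated 6 of the 15 rose and 7 fell (against 16.2% and 60.1% of all), and 7 rose and 2 fell after rescaling (against 30.6% and 27.6%). Their median was -0.32, beside -0.48 over all. The largest increases were those of *Maff*, another small MAF (2.84 and 3.01 TPM in untreated cells, 67.2 and 66.0 TPM in LPS, 78.9 and 75.0 in Met + LPS; log2 fold change 4.11, limma adjusted p = 8.4e-09), and *Sqstm1* (793 and 804 TPM, 2868 and 2767 TPM, and 4126 and 4264 TPM; 1.82, limma adjusted p = 5.5e-08). *Palb2*, whose product can bind KEAP1, and *Mafg* had the largest decreases, by -1.51 and -1.50 as deposited and -1.14 and -0.98 after rescaling.

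In the glutathione list 15 of 16 genes were tested, and 4 rose and 2 fell in Met + LPS vs. LPS, against 14.5% and 18.0% of all tested genes, with a median of 0.00 beside -0.03 over all. *Slc7a11*, the cystine carrier that supplies cysteine for glutathione, was at 1.58 and 1.46 TPM in untreated cells, 10.7 and 10.2 TPM in LPS and 60.7 and 61.6 in Met + LPS. It rose at each step, by a log2 fold change of 2.18 under LPS (limma adjusted p = 2.5e-07) and 2.44 more with metformin (limma adjusted p = 4.4e-06). Its partner chain *Slc3a2* rose by 0.88 over LPS, *Chac1*, which degrades glutathione, by 1.11, and the glutathione transferase *Gsto1* by 0.49. *Chac1* stood at no more than 4.77 TPM, with only 19 reads in each LPS library. *Glrx* (glutaredoxin 1) went from 23.8 and 26.7 TPM in untreated cells over 40.4 and 38.8 TPM in LPS to 18.1 and 18.7 TPM in Met + LPS, a change of -1.07 from LPS (limma adjusted p = 5.2e-05). *Gpx1*, the main cytosolic glutathione peroxidase, changed by -0.52 (limma adjusted p = 2.3e-04). In LPS vs. untreated 5 of the 15 rose and 9 fell as deposited (against 16.2% and 60.1% of all), so the share of decreases was that of the background. After rescaling 5 rose and 1 fell (against 30.6% and 27.6%). The median as deposited was -0.42, beside -0.48 over all. *Slc7a11* and *Ggct* (1.48) had the largest increases, ahead of *Glrx*, *Abcc1* and *Slc3a2*, and *Glrx2* (-0.87, and -0.41 after rescaling) and *Gpx1* (-0.63, and -0.11 after rescaling) the largest decreases as deposited. *Ggct* stood at no more than 3.92 TPM in any library.

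Of 12 genes of the thioredoxin and peroxiredoxin system, 3 rose and 5 fell in Met + LPS vs. LPS, against 14.5% and 18.0% of all tested genes, with a median of -0.07 beside -0.03 over all. *Sesn2*, a stress-induced sestrin, was at 25.2 and 26.6 TPM in untreated cells, 4.50 and 4.34 TPM in LPS and 26.0 and 20.7 in Met + LPS, an increase of 2.16 over LPS (limma adjusted p = 2.4e-05). *Txnip*, the thioredoxin-binding inhibitor, was at 265 and 259, 57.4 and 59.5, and 7.50 and 9.55 TPM, a change of -2.65 from LPS (limma adjusted p = 1.1e-05). The relatives of *Prdx1* and *Txnrd1* went both ways. *Prdx2* (-0.58), *Prdx5* (-0.33) and *Prdx4* (-0.23) fell, as did the mitochondrial reductase *Txnrd2* (-0.32), whereas *Prdx6* (0.30) and *Txnrd3* (0.58) rose, and *Prdx3* did not pass the test (0.18, limma adjusted p = 0.0362). Under LPS *Prdx5* (1.15, and 1.67 after rescaling) and *Txn1* (0.44, and 0.97 after rescaling) rose and 9 of the 12 fell as deposited (against 16.2% and 60.1% of all; median -0.36 beside -0.48), led by *Sesn2* (-2.31, and -1.83 after rescaling) and *Txnip* (-2.15, and -1.62 after rescaling). After rescaling 5 rose and 3 fell, against 30.6% and 27.6%.

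NADPH feeds both systems. Of 8 genes for NADPH supply, 2 rose (*Taldo1*, 0.32, and *Pgd*, 0.20, both of the pentose phosphate pathway) and 4 fell in Met + LPS vs. LPS (against 14.5% and 18.0% of all tested genes), with a median of -0.09 beside -0.03 over all. *Me1*, which encodes cytosolic malic enzyme, did not pass the test (0.26, limma adjusted p = 0.116). *Idh1*, the cytosolic isocitrate dehydrogenase, was at 324 and 330 TPM in untreated cells, 196 and 189 TPM in LPS and 109 and 97.9 in Met + LPS, a change of -0.89 from LPS (limma adjusted p = 5.3e-05). *G6pdx*, which opens the pentose phosphate pathway, changed by -0.40, *Nadk* by -0.31 and *Tkt* by -0.19. In LPS vs. untreated 0 of the 8 rose as deposited (0 also at an unadjusted p under 0.05 and in voom) and 6 fell, against 16.2% and 60.1% of all, led by *Mthfd1* (-0.80, and -0.29 after rescaling) and *Idh1* (-0.76), with a median of -0.39 beside -0.48. After rescaling 3 rose and 1, *Idh1*, fell (-0.24, adjusted p = 0.00623), against 30.6% and 27.6%.

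Of 8 genes for haem breakdown and iron storage 7 were tested, and 2 rose and 1 fell in Met + LPS vs. LPS, against 14.5% and 18.0% of all tested genes, with a median of 0.18 beside -0.03 over all. *Fth1*, the ferritin heavy chain, was at 48890 and 49100 TPM in untreated cells, 36000 and 34930 TPM in LPS and 54320 and 53610 in Met + LPS, an increase of 0.61 over LPS (limma adjusted p = 7.6e-05). The iron exporter *Slc40a1* was at 70.4 and 73.6, 11.0 and 10.7, and 18.2 and 19.6 TPM, an increase of 0.75 (limma adjusted p = 1.0e-04). In Met + LPS it stayed below untreated cells, with a log2 fold change of -1.88 as deposited and -1.35 after rescaling. *Hmox1* also stayed below them, with -0.91 and -0.37. *Blvra*, which reduces the biliverdin made by HMOX1, changed by -0.27 (limma adjusted p = 0.00249). Under LPS all 7 tested genes fell as deposited (against 60.1% of all; median -0.64 beside -0.48), *Slc40a1* by -2.63 and the haem transporter *Slc48a1* by -0.84, and these 2 were the ones that fell after rescaling (-2.12 and -0.32, against 27.6% of all).

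Among 14 other antioxidant and detoxification genes 11 were tested, and 2 rose and 2 fell in Met + LPS vs. LPS, close to the 14.5% and 18.0% of all tested genes, with a median of -0.05 beside -0.03 over all. *Procr*, the protein C receptor, rose by 0.91 (14.1 and 13.1 TPM in untreated cells, 19.4 and 19.8 TPM in LPS, 37.8 and 37.9 in Met + LPS; limma adjusted p = 4.3e-05) and *Cat*, catalase, by 0.57 (limma adjusted p = 8.2e-04). *Sod2*, the mitochondrial superoxide dismutase, changed by -0.56 after an LPS-induced rise of 3.36 (19.3 and 19.4 TPM in untreated cells, 209 and 208 TPM in LPS, 140 and 142 in Met + LPS; adjusted p = 4.6e-05 and 3.2e-09 in limma). *Ephx1*, epoxide hydrolase, changed by -0.47 (limma adjusted p = 0.00148). Under LPS 3 rose (*Sod2*, *Procr* and *Ugdh*) and 8 fell as deposited, against 16.2% and 60.1% of all, with a median of -0.54 beside -0.48. After rescaling 3 rose and 4 fell, against 30.6% and 27.6%. *Osgin1* was at 15.7 and 17.3 TPM in untreated cells and 1.97 and 1.64 TPM in LPS, a change of -2.64 (-2.20 after rescaling), and *Trim16* changed by -1.68 (-1.20 after rescaling). Neither came back with metformin, where they differed from LPS by 0.02 and -0.22.

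**Figure D4:**
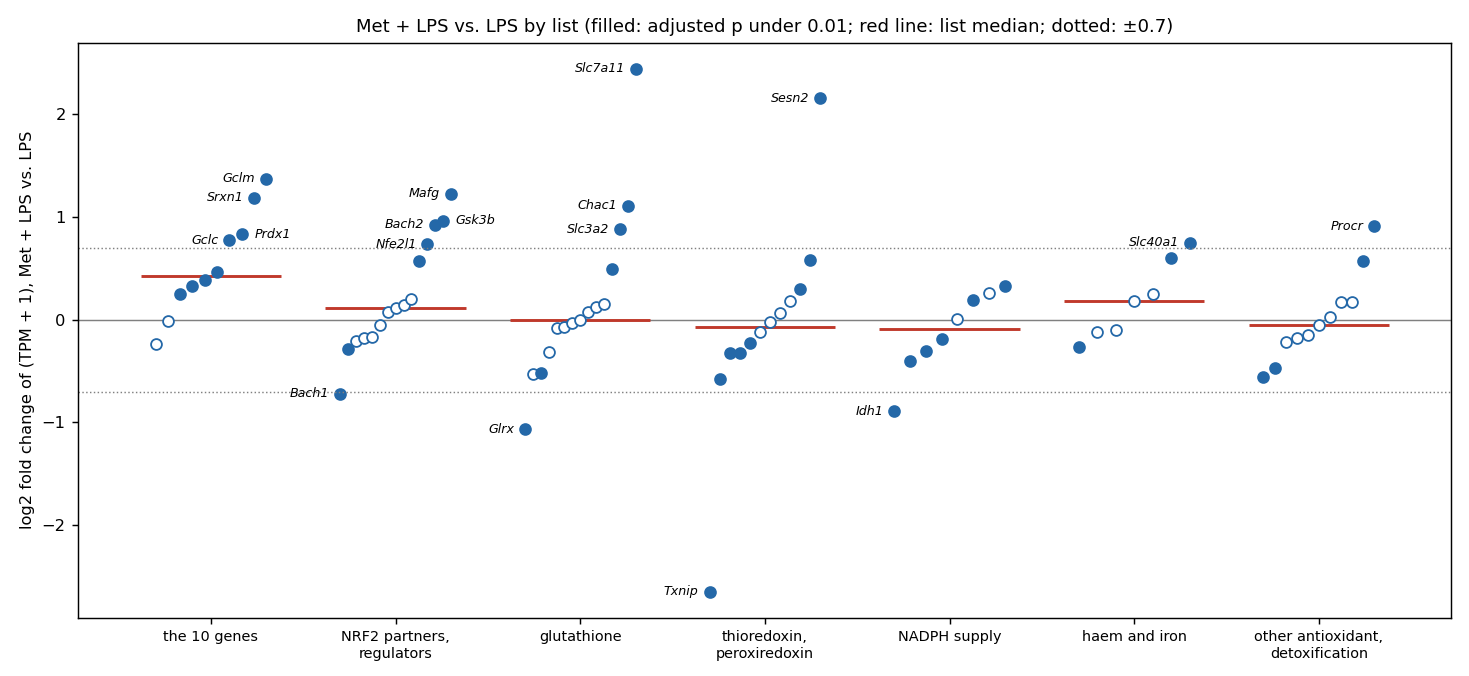
Log2 fold changes of log2(TPM + 1) in Met + LPS vs. LPS for the 10 genes and for the tested genes of the 6 other lists, each point a gene (filled where the adjusted p was under 0.01 in limma), with red lines at list medians and dotted lines at the fold cut-off of 0.7. The 10 genes have the highest median, 0.43, with *Keap1* and *Nqo1* below 0, and the other lists spread to both sides of 0.

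The genes whose pattern over the 6 libraries was most like that of *Nfe2l2*, by Euclidean distance between centred log2(TPM + 1) values among the 7474 other genes with a mean of at least 10 TPM, were *Scamp1* (distance 0.07; means of 38.3, 30.3 and 40.2 TPM in untreated, LPS and Met + LPS), *Rtn3* (0.08; 225, 175 and 227 TPM) and *Ctsl* (0.10; 423, 316 and 417 TPM). Those most like *Hmox1* were *Wdr24* (0.09; 27.3, 11.2 and 14.0 TPM), *Dhx33* (0.09; 15.9, 6.57 and 8.09 TPM) and *Wdr62* (0.10; 19.5, 7.62 and 10.5 TPM). Both sets were lowest in LPS, as the measure asks, and none of these 6 genes belongs to the lists above.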

How the data were processed

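The deposited values are TPM per gene for 6 libraries, made by the authors from poly-A RNA. Single-end reads were aligned to GRCm38 with STAR 2.6.1d, handled with SAMtools 1.9 and counted with featureCounts (Subread 1.6.3), replicates were not pooled, and how counts became TPM is not given in the sources used here. The deposited table also lists gene positions and 1 transcript length per gene, which were copied as the authors' values.

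Of 54532 genes, the 12755 that reached 1 TPM in 2 or more libraries entered limma (version 3.58.1, R 4.3.3) as log2(TPM + 1), with a mean-variance trend, 6 libraries in a common fit, 3 residual degrees of freedom, no covariate and Benjamini-Hochberg adjustment over all tested genes. The added 1 shrinks fold changes of genes with low TPM. Folds and ratios are of group means in TPM. The authors tested counts with DESeq2, which could not be used on TPM.

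TPM times exon length (GENCODE M21, GRCm38, 54495 genes matched) was a whole multiple of a common step, within 0.05 reads, for 96.4% to 96.6% of the values above 0. These multiples were taken as reads for limma voom and to judge depth. They carry no molecular identifiers. The share of 31-mers found in no other gene was taken from the GENCODE transcripts.

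The members and lists were chosen with earlier results of these data known, so no list was tested as a set, and lists are described by counts and medians beside those of all tested genes. For Met + LPS vs. LPS and LPS vs. untreated, the 2 largest increases and 2 largest decreases past the test are named from each list. Genes that counts of 5 or fewer as deposited refer to are named too. *Me1* and *Prdx3*, which did not pass in Met + LPS vs. LPS, are named besides. For Met + LPS vs. untreated only some of the largest changes are named. Alternatives were median-ratio scaling, 0.1 as the pseudocount, testing every gene above 0, a 5 TPM filter, the compared groups only, the replicate number as a block, no trend, an adjusted p of 0.05, voom, and leaving out each library. Voom with scaling by the trimmed mean of M values (TMM) was added after seeing the data. The test was checked on simulated data. Plots were drawn with matplotlib 3.10.9 in Python 3.11.15. A planned comparison of protein sequences was not analysed here.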

Additional observations from a re-analysis of the deposited data

How the results depend on the processing

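The number of the 10 genes past the test in Met + LPS vs. LPS was 6 to 9 over all alternatives (6 to 8 when each library was left out), and 4 passed the fold cut-off in each of them. In LPS vs. untreated it was 4 to 8, and 4 to 7 with each library left out. With the replicate number as a block the counts were 7, 8 and 8 of the 10 in LPS vs. untreated, Met + LPS vs. LPS and Met + LPS vs. untreated, as without it. Of all tested genes 76.3%, 32.6% and 75.1% passed in these comparisons without the block. Same-numbered libraries did not deviate together (correlations of 0 to 0.03 between groups). With so few libraries a group, noise of single libraries can hide a shared origin, so this cannot show whether the samples were paired. The sample titles letter the replicates of each group A and B. Of the 68 other listed genes tested, 62 passed in LPS vs. untreated (16 higher; 76.3% of all tested genes passed), 36 after median-ratio scaling (23 higher; 58.3% of all) and 40 with voom and TMM (22 higher; 65.3% of all).

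Scaling turned directions. In LPS vs. untreated, median-ratio scaling gave *Nfe2l2* 0.16, *Keap1* 0.16, *Nqo1* 0.044, *Srxn1* 0.20 and *Prdx1* 0.41, and voom with TMM gave 0.11, 0.11, 0.001, 0.15 and 0.35, in place of values below 0, and the cause was not tested. In Met + LPS vs. untreated they gave *Gclc* 0.26 and 0.23 and *Nqo1* 0.048 and 0.015, and each put 1 gene, *Txnrd1*, past the log2 cut-off of 2. In Met + LPS vs. LPS *Nqo1* came to 0.004 and 0.014. With each library left out it ranged from -0.23 to 0.21 in that comparison, and *Nfe2l2* in Met + LPS vs. untreated from -0.022 to 0.068. Depth limits *Nqo1*, with 45 to 82 reads per library.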

Other observations

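Against untreated cells, the lists around the 10 genes had the following balance in Met + LPS as deposited, beside 16.3% higher and 58.8% lower over all tested genes. Of the 15 partners and regulators of NRF2 8 were higher and 5 lower (*Palb2*, *Dpp3*, *Btrc*, *Rbx1* and *Mafg*; 11 and 1 after rescaling), with the largest increases for *Maff* (4.31) and *Sqstm1* (2.39). Of the 15 tested glutathione genes 5 were higher (*Slc7a11*, *Slc3a2*, *Ggct*, *Abcc1* and *Chac1*) and 8 lower (8 and 3 after rescaling), and *Slc7a11* had the largest increase at 4.62 (limma adjusted p = 1.4e-08). Of the 12 thioredoxin and peroxiredoxin genes 3 were higher (*Prdx5*, *Txn1* and *Prdx6*) and 6 lower (5 and 4 after rescaling), and *Txnip* had the largest decrease at -4.80 (limma adjusted p = 8.0e-08). Of the 8 NADPH genes 0 were higher in limma (0 at an unadjusted p under 0.05 and 0 in voom) and 6 lower (4 and 2 after rescaling), *Idh1* with -1.65. Of the 7 haem and iron genes 0 were higher in limma (1 at an unadjusted p under 0.05, *Fth1*, and 1 in voom) and 6 lower (2 and 4 after rescaling). Of the 11 other antioxidant genes 3 were higher (*Sod2*, *Procr* and *Ugdh*) and 7 lower (4 and 4 after rescaling).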
